A study of Mus musculus with 18 samples.

Results

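The urothelial cells described here are the central 50% of the urothelium of the mouse urinary bladder when cells are ranked by the share of their transcripts that encode uroplakins, proposed as intermediate cells. They came from 5 single-cell libraries of whole bladder of C57BL/6 mice, 5 of the 18 samples of an atlas that also holds nuclei, spatial and bulk RNA libraries. Each library pooled animals. One was made from 3 males aged 22 months and one from 3 males aged 3 months. The 2 that follow (replicates 1 and 2) each came from 2 females with 2 males aged 12 months, and the last from 2 females with 2 males aged 24 months. The labels give no transgene or treatment, and a library, not a mouse, is the unit of replication. Values listed for 5 libraries follow that order throughout.

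A barcode counted as a urothelial cell when it held at least 500 unique molecular identifiers (UMIs, each standing for 1 captured RNA molecule) and at least 1% of them came from 13 genes: Krt5, Krt15, Krt7, Krt8, Krt18, Krt19, Epcam, Sfn, Perp, Upk1a, Upk1b, Upk2 and Upk3a. This gave 7882 urothelial cells of 22726 barcodes, with 1287, 1589, 2243, 788 and 1975 in the libraries. Within each library the classes were chosen by measured values, the share of UMIs from the 4 uroplakin genes Upk1a, Upk1b, Upk2 and Upk3a. The middle class is the central 50% of the ranked cells and comprised 3938 cells (643, 793, 1121, 394 and 987). The low class is the lowest 25% and the high class the highest 25%, with 1972 cells each.

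The urothelium is the layered epithelium that lines the bladder and holds back urine. Basal cells rest on the basement membrane, intermediate cells lie above them, and superficial umbrella cells cover the surface with rigid plaques of uroplakins, which intermediate cells already make in smaller amounts. Uroplakins are membrane proteins that assemble in the secretory pathway and reach the surface in fusiform vesicles.

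The limits between the classes were set by measured values and are a description. The middle class began at a uroplakin share of 0.299, 0.313, 0.291, 0.309 and 0.233% of UMIs and ended at 0.997, 1.01, 0.716, 0.725 and 0.553%. The nearest cell of the low class had a share of 0.299, 0.313, 0.291, 0.309 and 0.232%, and the nearest cell of the high class 0.998, 1.01, 0.716, 0.728 and 0.554%, so no gap separated the classes. Of the cells of the middle class, 16.8, 16.3, 19.8, 18.8 and 21.8% lay within 10% of a limit. The UMIs of each cell were also divided at random into separate parts and both parts were ranked. Of the cells placed in the middle class by 1 part, 73.3, 71.4, 79, 82 and 79.4% were placed there by the other. Random placement would give about 50%, the share of cells in that class. The low and high classes agreed at 73.9, 68.6, 75, 75.6 and 75.9% and at 72.4, 72.9, 83.1, 88.3 and 82.6%. Their random level is about 25%, so the middle class stood least far above its own.

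The genes that chose the cells differed between the classes by construction, and no test was made on them. Krt15, a keratin of the lower layers, was at 8608, 8413, 5839, 5356 and 4737 UMIs per 1000000 non-mitochondrial UMIs in the low class and at 6973, 6820.2, 4397, 3519 and 3784 in the middle class. It was at 5502, 5228, 1796, 1318 and 1681 in the high class, so each library kept Krt15 in all 3 classes and the fall toward the high class was steeper in the 3 mixed libraries than in the 2 male ones. Upk1b, a tetraspanin that pairs with Upk3a in the plaque, stood at 721, 656, 511, 599 and 400.3 per 1000000 in the middle class, between 406, 284, 299.8, 338 and 235 in the low class and 1232, 1251, 1199, 1288 and 988 in the high class. Krt18, a keratin of simple and upper layers, stood at 3254, 4479, 3252, 2925 and 2726 in the middle class. Barcodes of the same libraries that failed the gate and held at least 1% fibroblast markers should lack uroplakins. Upk1a was at 53.9, 77.3, 165, 149.7 and 110.5 per 1000000 in them, against 3008, 3829, 1643, 1743 and 1299 in the middle class. The gate counts Upk1a, so its low level in those barcodes was partly fixed by the choice.

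The label "intermediate" was checked against genes outside the rule. Krt14, a keratin of basal progenitors, was at 1.8, 0.927, 1.03, 0.356 and 0.194 counts scaled to a sum of 1000000 (CPM) in the middle class, and Krt17 and Ngfr had too few UMIs to test. Krt20, a keratin of umbrella cells, was at 10.8, 18.2, 29.6, 79.3 and 24.3 CPM in the middle class, and its mean over libraries was 21.8, 32.4 and 46.7 CPM in the low class, middle class and high class. The markers given for intermediate cells (Krt15, Upk1b and Krt18) were all used by the rule and so are no independent check of the name. The cells are therefore called the middle class.

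Median UMIs per cell rose with the uroplakin share in every library: they were 3736.5, 2628, 11691, 14836 and 11121.5 in the low class, 4110.0, 3272, 13881, 17541.5 and 13041 in the middle class and 4845.5, 3741.5, 16855, 22445 and 15597 in the high class. The middle class had on average 1.18 times the median depth of the low class and 0.832 times that of the high class (exact two-sided sign-flip permutation test, p = 0.0625 for each, the smallest that 5 libraries allow). The mitochondrial share of UMIs also rose with the ranking in the 3 mixed libraries: it was 4.76, 5.64 and 6.29% in the 12-month replicate 1, 5.05, 5.67 and 5.93% in the 12-month replicate 2 and 4.49, 5.28 and 6.83% in the 24-month library for the low class, middle class and high class. Its part in the results below was not tested beyond leaving out cells over 20% mitochondrial UMIs, after which 1488 genes were called against the low class and 1904 against the high class. Summed over cells, the middle class held between 2498311 and 16605733 UMIs per library. Cells with at least 1% of UMIs from markers of fibroblasts, muscle, immune, endothelial, red blood, Schwann or pericyte cells made up 17.7, 9.3, 0.713, 1.02 and 0.405% of the low class, 11.8, 5.55, 0.0892, 0.254 and 0.405% of the middle class and 4.66, 3.02, 0, 0 and 0% of the high class. All 12 fibroblast markers were detected in the middle class of every library, with a summed level of 131 to 5175 per 1000000 there, 204 to 7731 in the low class and 92.1 to 3372 in the high class, the highest values being those of the 22-month males. Their level fell from the low class to the middle class in 5 of 5 libraries and from the middle class to the high class in 4, the 12-month replicate 1 being the exception. Means over libraries went the other way for summed pericyte markers, which include Rgs5 and Notch3 (21.6, 34.6 and 83 per 1000000 in the low class, middle class and high class), and for mesothelial markers, which include Upk3b (128, 151 and 195 per 1000000). Leaving out the cells with at least 1% of markers from fibroblast to pericyte, as counted before, changed the number of genes that passed the test from 1502 to 1527 against the low class and from 1855 to 1989 against the high class. The 2 male libraries shared 64 barcodes over their whole tables, the pairs of mixed libraries shared 1, 6 and 12, and the middle classes of any 2 libraries shared at most 2.

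Differences were tested on counts summed over the cells of each class in each library, which gives 15 sums. The 13 rule genes and 13 mitochondrial genes were left out of the sums. The test was the quasi-likelihood test of edgeR with the library as a block, and a gene is said to have risen, fallen or been called when its Benjamini-Hochberg adjusted p was under 0.05. CPM are counts scaled to a sum of 1000000 of the remaining genes after normalization by trimmed means (TMM), and log2 differences are the middle class minus the other class. Classes of 1 library come from the same animals, so the tests ask how repeatable a difference within a library is.

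Against the low class, 1502 of 11173 genes were called in the middle class (13.4%). Of these, 787 were higher (7.04%) and 715 lower (6.4%). Scaling by library size alone changed that balance: 34.3% of the calls were then higher in place of 52.4%, and the median over all genes moved from -0.01 to -0.07 on the log2 scale. Against the high class, 1855 genes were called (16.6%), 1021 higher (9.14%) and 834 lower (7.46%), with a median over all genes of 0.02. The list counts below can be read beside these shares of all tested genes. Leaving out the 12-month replicate 1 lowered the numbers against the low class to 456 higher and 354 lower, and leaving out the 24-month library lowered them to 486 and 383. Against the high class 493 higher and 415 lower were called without the 12-month replicate 1, 391 and 374 without the 24-month library, and 630 higher without the 12-month replicate 2. With all cells thinned to 1000 UMIs and ranked anew, 118 higher and 127 lower were called against the low class and 61 and 67 against the high class. The thinned low class, middle class and high class held 828, 823 and 568 cells in the 12-month replicate 1. In the 22-month males they held 382, 533 and 353. In every library the thinned middle class was thus a smaller share of the ranked cells than in the main ranking. Its part in the lost calls was not tested.

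Genes that anchor cells to the basement membrane fell from the low class to the middle class. In the list of hemidesmosome and basement membrane genes, 9 of 14 tested genes fell and 0 rose (median log2 difference -0.36). Against the high class 13 of the 14 were higher in the middle class (median 0.51). The gene that passed neither test was Lamb2, a laminin chain. With cells thinned to 1000 UMIs 2 of 12 tested genes of the list fell against the low class and 0 were called against the high class.

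Col17a1, a collagen that spans the membrane at hemidesmosomes, stood at 26.4, 44.3, 27.2, 20.9 and 36.5 CPM in the low class, 12.9, 20.7, 9.59, 4.27 and 9.04 in the middle class and 0.572, 3.95, 1.57, 1.58 and 2.02 in the high class. In each library the middle class lay between the low and high classes. The highest middle class, that of the 3-month males, was just under the lowest low class, that of the 12-month replicate 2 (log2 difference -1.59, SE 0.14, adjusted p = 3.01e-09 against the low class). Against the high class the middle class was higher in 5 of 5 libraries (log2 difference 2.42, SE 0.24, adjusted p = 1.96e-08). Itga3, a laminin-binding integrin chain, was at 54.6, 20.1, 37.1, 91.3 and 48.6 CPM in the low class and 20.7, 12.4, 17.4, 35 and 18.8 in the middle class (log2 difference -1.25, SE 0.10, adjusted p = 3.74e-10), and thinning to 1000 UMIs ended that call (log2 difference -0.70, adjusted p = 0.152). It was lower still in the high class, at 13.7, 3.95, 8.09, 13.2 and 10.1 CPM (log2 difference 1.10, SE 0.13, adjusted p = 3.53e-07). Itgb4 and Itga6, which form the hemidesmosomal integrin, fell by 0.70 and 0.49 on the log2 scale from the low class to the middle class (adjusted p from edgeR 1.07e-07 and 3.39e-05). Lama5, a laminin chain, had mean levels of 98.8, 84.8 and 54.1 CPM in the 3 classes.

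Of the basal urothelial genes outside the rule, 8 of 10 tested genes fell from the low class to the middle class and 0 rose (median -0.60), and 7 were higher in the middle class than in the high class (median 0.72). The list shares Col17a1, Itga6 and Itgb4 with the hemidesmosome list. Krt14 went from 24.6, 11.4, 5.12, 4.19 and 2.13 CPM in the low class to 1.8, 0.927, 1.03, 0.356 and 0.194 (log2 difference -3.13, SE 0.33, adjusted p = 4.36e-08). Trp63, the transcription factor that marks basal and intermediate cells, changed less, with means of 216, 174 and 148 CPM (log2 difference -0.34, SE 0.09, adjusted p = 0.0142 against the low class, and log2 difference 0.25, SE 0.09, adjusted p = 0.0592 against the high class). Cd44, a hyaluronan receptor of basal cells, had means of 78.7, 58 and 40.6 CPM. Its mean log2 difference from the high class was 0.02 in male and 0.78 in mixed libraries. The interaction of class and kind of pool was called for Cd44 (adjusted p = 0.0112 by edgeR). Shh, a secreted signal from the lower urothelium to the stroma, differed little from the low class (log2 difference 0.02, SE 0.07, adjusted p = 0.887) and was higher than in the high class (log2 difference 0.29, SE 0.07, adjusted p = 0.00247).

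Dlk2, which encodes a membrane protein related to Delta and Notch ligands, showed the largest fall among the 20 genes named against the low class. Its level was 70.2, 65.7, 16.6, 15.5 and 48.6 CPM in the low class and 15, 17.9, 1.51, 1.24 and 5.44 in the middle class (log2 difference -2.70, SE 0.20, adjusted p = 2.79e-08). The male libraries and the 24-month library were high in the low class, and in every library the middle class held less than 0.3 times the level of the low class. Ly6a, the Sca-1 surface antigen, was at 624, 499.8, 237, 181 and 301 CPM in the low class, 267, 236, 70.5, 62.4 and 94.8 in the middle class and 111, 101, 44.6, 18.2 and 45.6 in the high class (log2 difference -1.45, SE 0.12, adjusted p = 1.11e-05 against the low class). Its levels in the male libraries exceeded those of the mixed libraries in all 3 classes. S100a10, an annexin A2 partner, and Rdx, which encodes radixin and ties actin to the membrane, fell by 1.19 and 1.32 on the log2 scale. Rgs10, a regulator of G-protein signals, fell by 1.19 and was lower again in the high class (log2 difference 1.32, SE 0.14, adjusted p = 4.52e-08). Efemp1 and Cdo1, which encode an extracellular matrix protein and the enzyme cysteine dioxygenase, fell by 1.23 and 1.22, and their differences from the high class did not pass the test (adjusted p from edgeR 0.264 and 0.0898).

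**Figure D1:**
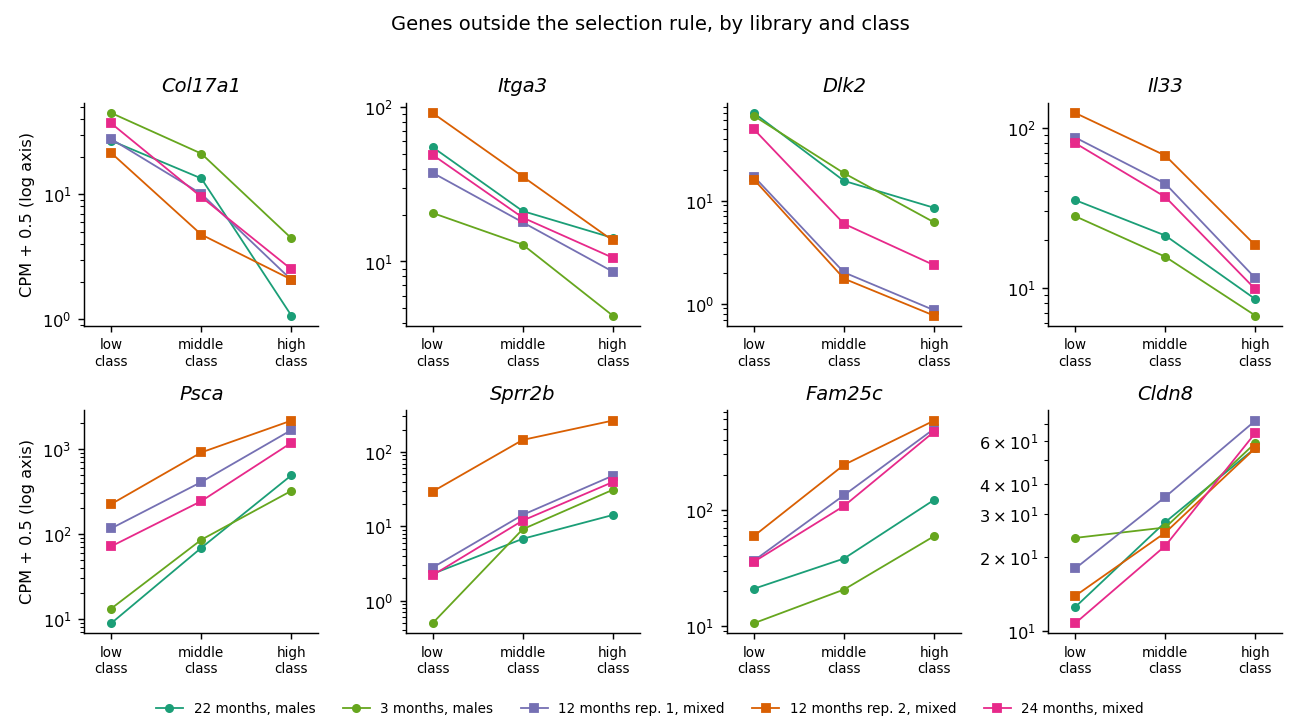
Level of 8 named genes (y axis: CPM + 0.5, log axis) in the low class, middle class and high class (x axis); each line is 1 library, circles are male pools and squares mixed pools. In all 8 panels each library's middle class lies between its low and high classes; Col17a1, Itga3, Dlk2 and Il33 fall from left to right and Psca, Sprr2b, Fam25c and Cldn8 rise.

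Genes of the upper urothelium rose from the low class to the middle class. Of 10 tested genes in the list of superficial urothelial genes outside the rule, 7 rose and 1 fell (median 0.48), and against the high class 5 were lower and 1 higher (median -0.24). Psca, a surface antigen anchored by a lipid tail, was at 8.4, 12.7, 116, 224 and 71 CPM in the low class, 68.2, 85, 408, 911 and 243 in the middle class and 489.8, 321, 1671, 2158 and 1183 in the high class. The difference was 1.93 (SE 0.26, adjusted p = 0.00153) against the low class and -2.04 (SE 0.23, adjusted p = 0.000413) against the high class by edgeR. The 2 male libraries were the lowest in each class.

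With every cell thinned to 1000 UMIs, Psca was seen in 6.61% (42 of 635 cells, 95% exact interval 4.81 to 8.84%) of the middle class of the 22-month males and in 37.3% (147 of 394 cells, 95% exact interval 32.5 to 42.3%) of that of the 12-month replicate 2. These intervals cover counting error only, and unthinned shares were 17.5% and 92.1%. In fibroblast-marker barcodes of the same libraries the thinned shares were 0.555% and 6.99%, at median depths before thinning of 2462.5 and 6139 UMIs against 4132 and 17541.5 in the middle class. In both libraries the share in the middle class was above that in fibroblast-marker barcodes, which had failed the gate. Cells of 1 pool are not replicates, so no test was made.

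Snx31, a sorting nexin of uroplakin-bearing endosomes, rose from 24, 30.2, 71.5, 90.4 and 67.2 CPM in the low class to 94, 100.4, 151, 179 and 145 in the middle class (log2 difference 1.21, SE 0.09, adjusted p = 7.17e-10), and reached 166, 175, 274, 327 and 260.3 in the high class. For Snx31 the lowest middle class lay just above the highest low class, the middle classes and high classes overlapped, and every library showed the same order. Upk3b, a uroplakin that the rule left out and mesothelium also expresses, had means of 87.4, 146 and 206 CPM (log2 difference 0.75, SE 0.07, adjusted p = 5.53e-09 against the low class). Upk3bl, named for its likeness to Upk3b, went the other way: it was at 99, 103, 47.5, 39.8 and 53.3 CPM in the low class, 50.8, 47.9, 16.9, 13.3 and 21.2 in the middle class and 8.0, 14.7, 7.01, 3.69 and 7.13 in the high class. That is the 1 gene of the superficial list that fell (log2 difference -1.28, SE 0.10, adjusted p = 2.21e-10), and in all 5 libraries its level dropped at both steps. Gata3, a transcription factor of urothelial identity, rose by 0.20 (adjusted p from edgeR 0.0336), and Grhl3, a factor required for umbrella cells, rose by 0.65 (adjusted p from edgeR 0.000394). From the high class, Gata3 differed by a mean of 0.06 in male and -0.24 in mixed libraries (adjusted p of the interaction 0.00109 by edgeR).

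In the list of uroplakin traffic and membrane fusion genes 4 of 16 rose against the low class and 0 fell, and against the high class 5 were lower and 0 higher (medians 0.19 and -0.16). Besides Snx31 these included the small GTPases Rab27b, which carries fusiform vesicles to the surface, and Rab11a, a GTPase of recycling endosomes. Rab27b had means of 131, 166 and 202 CPM and Rab11a 233, 268 and 345 CPM. Of 13 tight junction genes, 4 rose against the low class and 0 fell, and 2 were lower than in the high class and 0 higher. Cldn8, a claudin, was at 12, 23.5, 17.5, 13.4 and 10.2 CPM in the low class, 27.3, 26, 34.8, 24.7 and 21.8 in the middle class and 55.4, 58.2, 71.9, 55.4 and 64 in the high class (log2 difference -1.21, SE 0.10, adjusted p = 6.03e-10 against the high class). The high classes lay above all 5 middle classes, whereas the low class of the 3-month males lay above the middle class of the 24-month library. Cldn4, a claudin on both the superficial and the tight junction list, passed neither test (log2 difference 0.12, SE 0.13, adjusted p = 0.639 and log2 difference 0.08, SE 0.13, adjusted p = 0.768).

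**Figure D2:**
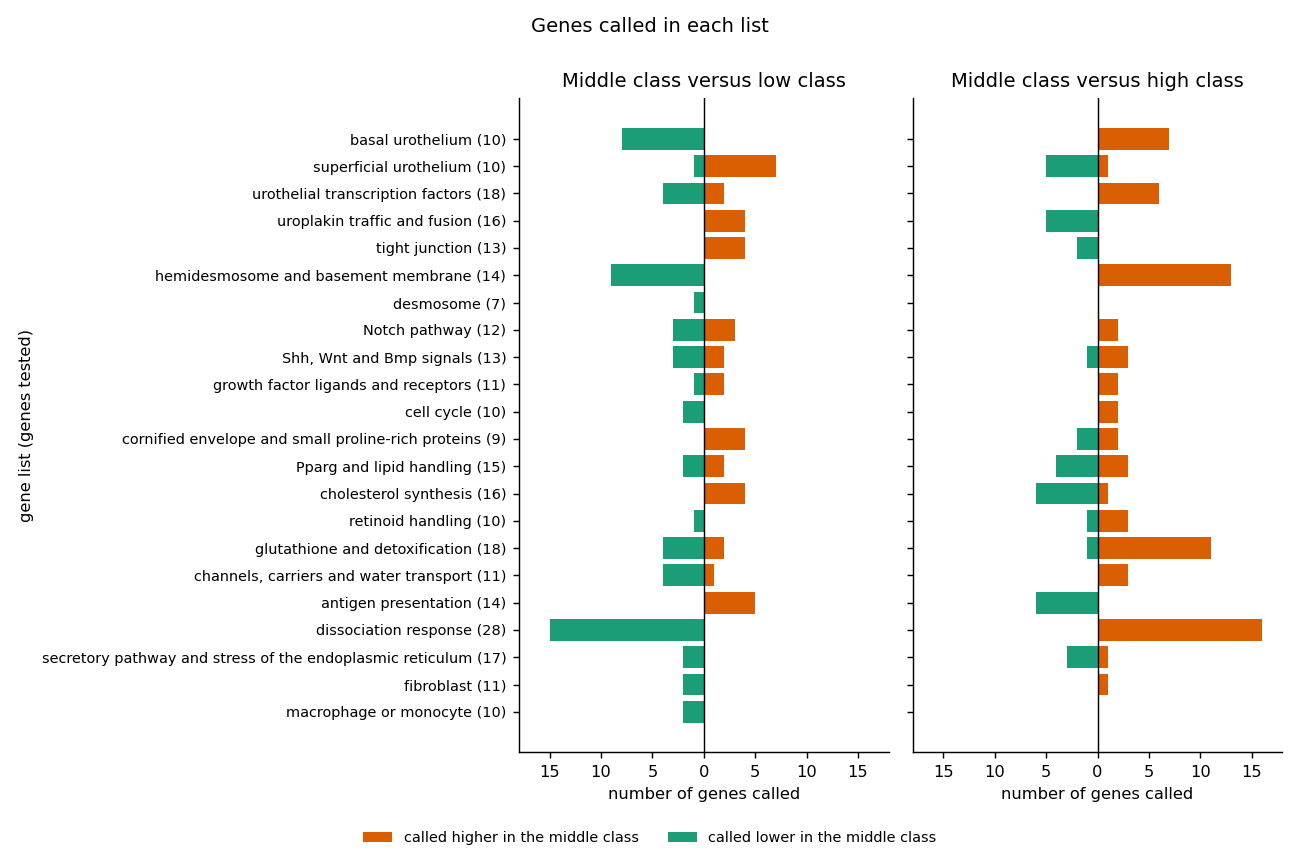
Number of genes called in each list of at least 7 tested genes (x axis; tested genes in brackets), higher in the middle class to the right of 0 and lower to the left, against the low class (left panel) and the high class (right panel). The dissociation response list shows 15 lower on the left and 16 higher on the right, and the hemidesmosome list 9 lower and 13 higher.

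Small proline-rich proteins, which are cross-linked into the envelope of stratified epithelia, included the 2 largest rises among the genes named against the low class. Sprr2b was at 1.8, 0, 2.3, 28.9 and 1.71 CPM in the low class and 6.31, 8.65, 13.8, 145 and 11.5 in the middle class (log2 difference 2.37, SE 0.27, adjusted p = 4.67e-05). Sprr2a1 went from 0, 1.34, 5.12, 25.5 and 5.12 CPM to 2.1, 7.11, 19.1, 116 and 22.1 (log2 difference 2.08, SE 0.25, adjusted p = 0.000119), and Sprr2a3 from 33, 22.8, 85, 229 and 101 CPM to 167, 132, 277, 816 and 241 (log2 difference 1.84, SE 0.26, adjusted p = 0.00185). After thinning to 1000 UMIs the rise of Sprr2a1 was 0.70 and lost its call (adjusted p = 0.389 by edgeR), that of Sprr2a3 was 1.12 and kept it (adjusted p = 2.17e-12), and Sprr2b had too few UMIs to test. The 12-month replicate 2 was the highest library for these 3 genes in all 3 classes, and the classes overlapped across libraries. Every library rose, which was a condition for naming these genes. Sprr2b reached 13.7, 30.5, 47.5, 264 and 38.9 CPM in the high class (log2 difference -1.37, SE 0.16, adjusted p = 5.73e-05). Sprr2a3 was at 286, 125, 888, 1606 and 739 CPM there, higher than in the middle class in every library but that of the 3-month males. Sprr2a2 had means of 3.18, 19.4 and 51.3 CPM (log2 difference -1.61, SE 0.12, adjusted p = 1.07e-09 against the high class; after thinning -0.94, adjusted p = 0.245). Of 9 tested genes in the list of cornified envelope genes, 4 rose against the low class and 0 fell (median 0.51), and 2 were higher and 2 lower than in the high class (median -0.17). The 2 lower ones were Sprr2a1 and Sprr2a3; Sprr2b and Sprr2a2, which are not on the list, were called in the same direction in both comparisons. The 2 that were higher than in the high class were Krt13 and Krt4, keratins of layered epithelia (log2 differences 1.70 and 0.99). Sprr1a, another small proline-rich protein, passed neither test (adjusted p from edgeR 0.193 and 0.147).

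The Sprr2 genes lie on chromosome 3, and promoters are shown because the copies were called together and can share reads. The windows are the 250 bases before the annotated start in RefSeq on GRCm38.p6, the patched form of the mm10 build that the submitters name, and 24 of the 33 named genes had a window. The windows of Sprr2a1 (chr3:92215585-92215834, plus strand) and Sprr2a2 (chr3:92250397-92250646, plus strand) are identical in 250 of 250 bases. That of Sprr2b is chr3:92316455-92316704 (plus strand) and that of Col17a1, printed as a gene that falls, chr19:47692043-47692292 (minus strand). Capitals mark matches on either strand to the AP-1 motif TGANTCA, the KLF motif GGGNGTGG, the Grhl motif AACCNGTT or the TATA box TATAAA, none of which overlap here.
Sprr2a1 and Sprr2a2: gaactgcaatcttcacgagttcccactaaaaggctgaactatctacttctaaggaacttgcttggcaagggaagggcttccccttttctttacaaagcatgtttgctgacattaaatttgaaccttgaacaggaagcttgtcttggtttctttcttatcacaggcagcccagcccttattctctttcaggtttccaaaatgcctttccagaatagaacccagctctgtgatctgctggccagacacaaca
Sprr2b: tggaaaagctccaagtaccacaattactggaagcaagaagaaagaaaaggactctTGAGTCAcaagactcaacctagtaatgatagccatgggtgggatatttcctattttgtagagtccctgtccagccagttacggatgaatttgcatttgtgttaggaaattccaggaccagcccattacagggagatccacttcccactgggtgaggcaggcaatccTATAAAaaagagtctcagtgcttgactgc
Col17a1: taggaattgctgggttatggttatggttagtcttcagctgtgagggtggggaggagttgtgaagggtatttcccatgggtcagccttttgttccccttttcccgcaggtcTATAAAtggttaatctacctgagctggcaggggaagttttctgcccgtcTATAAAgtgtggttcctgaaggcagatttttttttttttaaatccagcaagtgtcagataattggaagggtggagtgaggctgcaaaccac
The window of Sprr2b holds 1 AP-1 match and 1 TATA box, that of Col17a1 holds 2 TATA boxes, and that of Sprr2a1 holds no match to the 4 motifs. Among all 32851 windows, 6.75% hold the AP-1 motif, 15.9% the KLF motif, 1.79% the Grhl motif and 12.4% the TATA box. A match describes the letters only. Because Sprr2a1, Sprr2a2 and Sprr2a3 are close copies of each other, how the deposited counts divide reads among them is uncertain.

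Other genes with large rises were Fam25c, at 37.5, 20.1, 133, 243 and 107 CPM in the middle class, Pdzk1ip1, a small membrane protein, at 32.7, 28.4, 71, 78.1 and 46.6 CPM, and Defb1, an antimicrobial defensin, at 11.7, 2.16, 53.4, 64.7 and 41.2 CPM. Against the low class they rose by 1.76, 1.62 and 1.69 on the log2 scale, and against the high class they were lower by log2 differences of -1.74, -1.23 and -1.03. Rhov, a small GTPase, the long non-coding RNA Snhg11 and the unnamed transcript RP24-549B12.4 rose by 1.41, 1.71 and 1.79. Fam25c and Snhg11 were lower in the 2 male libraries than in the 3 mixed ones in every class. Arg2, mitochondrial arginase, was at 9.61, 11.7, 22.3, 23.5 and 17.5 CPM in the middle class and 28, 35, 62.9, 48.8 and 59.7 in the high class (log2 difference -1.49, SE 0.11, adjusted p = 2.75e-11). Acer2, a ceramidase of the Golgi, was at 20.7, 20.7, 45, 69.3 and 37.8 CPM in the middle class and 35.4, 29.4, 119, 152 and 95.6 in the high class (log2 difference -1.20, SE 0.11, adjusted p = 9.12e-07). After thinning to 1000 UMIs neither Arg2 nor Acer2 kept the call (log2 differences -0.58 and -0.59, adjusted p from edgeR 0.48 and 0.112).

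Il33, an alarmin cytokine stored in epithelial nuclei, had the largest difference among the 10 genes named as higher than in the high class. It was at 34.8, 27.5, 86.4, 123 and 79.6 CPM in the low class, 20.7, 15.1, 44.2, 66.5 and 36.4 in the middle class and 8.0, 6.21, 11, 17.9 and 9.3 in the high class. Every library fell at both steps (log2 difference -0.96, SE 0.08, adjusted p = 1.16e-09 against the low class, and log2 difference 1.89, SE 0.11, adjusted p = 4.08e-13 against the high class), and the lowest middle class, that of the 3-month males, was under the highest high class. Gsdmc2, a gasdermin gene, was at 354, 216, 74.8, 149 and 165 CPM in the middle class and 213, 92.6, 20.7, 42.7 and 45.6 in the high class. Gsdmc2 and its close copy Gsdmc3, between which reads may be divided with error, were higher than in the high class by 1.46 and 1.47 on the log2 scale. Ptgs1 and Ptges, the cyclooxygenase and synthase of prostaglandin E2, were both higher than in the high class (log2 difference 1.14, SE 0.22, adjusted p = 0.0068, and log2 difference 1.31, SE 0.19, adjusted p = 0.000147) and both lower than in the low class (by 0.85 and 1.12). Ank, a pyrophosphate transporter, and Sema3c, a secreted guidance factor, were higher than in the high class by 1.32 and 1.19. With cells thinned to 1000 UMIs the difference of Sema3c from the high class was -0.02 (adjusted p = 0.996 by edgeR), without the call and in the other direction, and that of Ank was 0.50 (adjusted p = 0.51). Thinning also ended the calls against the high class for Il33 (log2 difference 0.97, adjusted p = 0.0773), Gsdmc3 (0.74, 0.155), Ptges (0.70, 0.272) and Ptgs1 (0.52, 0.165), and that of Gsdmc2 held (1.01, 1.39e-07). Cyp2f2, a cytochrome P450, was at 197, 172, 194, 127 and 183 CPM in the middle class and 107, 117, 49.9, 21.9 and 44.2 in the high class (log2 difference 1.59, SE 0.40, adjusted p = 0.0295), and it did not pass the test against the low class (log2 difference -0.43, SE 0.35, adjusted p = 0.516). Leaving out the 12-month replicate 1, the 12-month replicate 2 or the 24-month library ended the call for Cyp2f2 against the high class (adjusted p from edgeR 0.176, 0.0894 and 0.189), as did thinning (0.401).

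Notch signalling sets fates between neighbouring cells. Against the low class 3 of 12 tested genes of the pathway rose and 3 fell, and against the high class 2 were higher and 0 lower. The receptors Notch1 and Notch3 rose (log2 difference 0.28, SE 0.07, adjusted p = 0.00775, and log2 difference 0.70, SE 0.19, adjusted p = 0.0202), as did Nrarp, a target and inhibitor of the pathway (log2 difference 1.36, SE 0.27, adjusted p = 0.0106). The ligands Dll1 and Jag2 and the glycosyltransferase Lfng fell by 1.69, 0.62 and 1.02 on the log2 scale (adjusted p from edgeR 2.21e-05, 0.00355 and 0.0026). Nrarp stood at 14.4, 12.7, 33.9, 28.5 and 26.9 CPM in the low class and 78.7, 74.2, 72.8, 41.3 and 69.2 in the middle class, and the lowest middle class lay above the highest low class. Hes1, another target, was higher than the low class in 5 of 5 libraries without passing the test (log2 difference 0.41, SE 0.13, adjusted p = 0.0747). Dll1 and Jag2 were both higher than in the high class (adjusted p from edgeR 0.0261 and 1.57e-05).

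Of 13 tested genes of Shh, Wnt and Bmp signalling, 2 rose and 3 fell against the low class. Wnt10a, a Wnt ligand, was at 22.2, 21.5, 7.06, 4.19 and 7.47 CPM in the low class and 7.81, 7.42, 1.74, 1.6 and 2.24 in the middle class (log2 difference -1.66, SE 0.21, adjusted p = 8.77e-07). Bmp2 and Bmp7, ligands of the bone morphogenetic protein family, rose by 0.62 and 0.28. Among growth factor receptors, Erbb2 and Erbb3 rose by 0.51 and 0.34, and Fgfr2 fell by 0.59 (adjusted p from edgeR 0.00027). Of 18 urothelial transcription factors, 2 rose and 4 fell against the low class, and 6 were higher and 0 lower than in the high class. Klf4 and Klf5, zinc-finger factors of epithelia, fell by 0.83 and 0.27, and both were higher than in the high class. Pparg, a nuclear receptor that drives urothelial differentiation, had means of 117, 119 and 119 CPM and passed neither test (log2 difference 0.02, SE 0.06, adjusted p = 0.865 and log2 difference 0.01, SE 0.06, adjusted p = 0.965).

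Of 10 tested cell cycle genes 0 rose and 2 fell against the low class, and 2 were higher and 0 lower than in the high class. The summed list took means over libraries of 827, 621 and 462 UMIs per 1000000 in the low class, middle class and high class. Cdkn1a, a cyclin-dependent kinase inhibitor, gave the largest part of the UMIs of the tested genes of the list, with means of 469, 364 and 219.6 CPM, and Ccnd2 the next, with means of 193, 133 and 108 CPM. The replication genes Pcna, Mcm2, Mcm3, Mcm6, Rrm2 and Tyms passed neither test. Ccnd1, a cyclin of the first gap phase, fell by 0.45 on the log2 scale, and Cdkn1a was higher than in the high class by 0.72. Ccnd2, another such cyclin, fell from 173, 161, 203, 187 and 240.2 CPM in the low class to 120.4, 112, 143, 134 and 157 in the middle class (log2 difference -0.53, SE 0.06, adjusted p = 5.38e-08). The proliferation and mitosis genes Mki67, Top2a, Cdk1, Ccnb1, Ccna2 and Birc5 had too few UMIs to be tested, with Mki67 at 1.12, 1.1, 1.34, 1.25, 0.904, 2.12, 1.1 and 1.7 CPM in successive eighths of the cells.

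In the cholesterol synthesis list 4 of 16 genes rose against the low class and 0 fell, and 6 were lower and 1 higher than in the high class (medians 0.22 and -0.23). Fdps, farnesyl diphosphate synthase, was at 32.4, 31.5, 97, 84.2 and 108 CPM in the low class, 51.7, 50.1, 173, 172 and 159 in the middle class and 87.5, 106, 414, 362 and 363 in the high class (log2 difference -1.12, SE 0.07, adjusted p = 1.18e-12 against the high class). Fabp5, a fatty acid carrier, rose by 0.77 against the low class.

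In the list of glutathione and detoxification genes, 11 of 18 were higher than in the high class and 1 was lower (median 0.24), and 2 rose and 4 fell against the low class (median -0.14). The mixed libraries differed more from the high class than the male ones for Gstp1 (mean log2 differences 0.29 and -0.07), Gsto1 (0.62 and 0.15) and Nqo1 (0.51 and 0.13). The interaction of class and kind of pool was called for 13 of the 18 genes, against 4.82% of all genes tested. For all 13 the fitted log2 difference from the low class was higher in male than in mixed libraries. The gap ran from 0.16 for Mgst1 to 0.97 for Cyp2f2. After thinning to 1000 UMIs 4 of the 18 were higher than in the high class and 0 were lower. Aldh3a1, an aldehyde dehydrogenase, was at 885, 1262, 651, 747 and 858 CPM in the middle class and 625, 900.4, 287, 271 and 404 in the high class (log2 difference 0.92, SE 0.20, adjusted p = 0.0141). Gstm1, a glutathione transferase, was the 1 gene lower than in the high class: it was at 22584, 29403, 31049.9, 28135 and 27046 CPM in the low class, 46779, 51124, 43432, 34949 and 38551 in the middle class and 61828, 68309.5, 51424, 43221 and 46286 in the high class (log2 difference 0.62, SE 0.10, adjusted p = 0.000418 against the low class). Reads of glutathione transferases with near-identical copies may be divided with error.

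Some genes of class I antigen presentation rose from the low class to the middle class. Of 14 tested genes of the antigen presentation list, 5 rose against the low class and 0 fell, and 6 were lower than in the high class and 0 higher (medians 0.13 and -0.35). B2m, the light chain of class I molecules, was at 597, 521, 573, 466 and 565 CPM in the low class, 752, 598, 917, 703 and 806 in the middle class and 989, 799, 1473, 1249 and 1318 in the high class (log2 difference -0.62, SE 0.10, adjusted p = 0.000398 against the high class). H2-K1, H2-D1 and H2-Q7, class I heavy chains with similar sequences, and Psmb8, a subunit of the immunoproteasome, made up the rest of the 5. Tap1, Tap2, Tapbp, Psmb9 and Nlrc5, which load or regulate class I molecules, were not called against the low class. The class II genes H2-Aa, H2-Ab1, H2-Eb1 and Cd74 passed neither test. With cells thinned to 1000 UMIs 1 of 11 tested genes rose and 2 fell against the low class, and 3 were lower than in the high class.

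Genes that tissue dissociation is known to induce fell along the ranking. Against the low class 15 of 28 fell and 0 rose (median -0.27), and against the high class 16 were higher in the middle class and 0 lower (median 0.32). The list took 10789 to 23697 UMIs per 1000000 in the low class, 9072 to 18240.0 in the middle class and 7138 to 15110.5 in the high class. Fos, a subunit of AP-1, was at 2912, 2855, 2071, 1845 and 2057 CPM in the low class, 2501, 2211, 1649.8, 1549 and 1642 in the middle class and 2098, 1767, 1319, 1407 and 1147 in the high class (log2 difference -0.30, SE 0.06, adjusted p = 0.000441 against the low class). Klf2 and Socs3, a flow-responsive factor and an inhibitor of cytokine signals, fell by 0.69 and 0.64. These levels moved with the basal and superficial genes, and their part in those results was not tested.

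The remaining lists showed few calls or calls in both directions. Over all genes 7.04% rose and 6.4% fell against the low class, and 9.14% were higher and 7.46% lower than in the high class. Of 11 channels and carriers 4 fell against the low class and 1 rose. Kcnn4, a calcium-activated potassium channel, and Atp1b1, a sodium pump subunit, fell by 0.82 and 0.54, and Slc14a1, a urea transporter, rose by 0.21. Of 10 retinoid genes 1 fell against the low class, and 3 were higher and 1 lower than in the high class. Aldh1a1, which makes retinoic acid, was at 63.7, 68, 59.5, 47.7 and 74.3 CPM in the middle class and 48.6, 51.4, 26.6, 23.2 and 36.9 in the high class (log2 difference 0.88, SE 0.12, adjusted p = 9.70e-05). Of 7 desmosome genes 1 fell against the low class, Pkp3, which encodes a plakophilin, and 0 were called against the high class. Of 15 genes of lipid handling 2 rose and 2 fell against the low class, and of 17 genes of the secretory pathway and its stress response 2 fell. One of these was Hspa5, the chaperone of the endoplasmic reticulum (log2 difference -0.33, SE 0.06, adjusted p = 9.33e-05).

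The middle class was then compared with the mean of the low and high classes, which asks for genes that depart from a point halfway between them on the log2 scale. By edgeR 3 of 11173 genes were called (0.0269%), all 3 higher and 0 lower (0%), and 743 had an unadjusted p under 0.05. DESeq2 called 0, and edgeR without the filter on low counts called 73 higher and 12 lower of 18744 genes. In the main fit no gene was both called and above the low and high classes in all 5 libraries (0%), and none was called and below both in all 5 (0%). The 3 genes, named after their values were seen, were Il33, Clcf1, a cytokine of the interleukin 6 family, and Jchain, the joining chain of secreted antibodies.

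Il33 lay between the low and high classes in every library, and Clcf1 did so in 4 of 5, with the 22-month males highest in the middle class. Clcf1 was at 6.6, 15.4, 30.02, 73.3 and 29.2 CPM in the low class, 7.81, 12.4, 23.6, 54.1 and 22.9 in the middle class and 7.43, 5.08, 7.85, 15.6 and 7.75 in the high class, with a log2 difference from the mean of both of 0.60 (SE 0.11, adjusted p = 0.0182 by edgeR), and Il33 had one of 0.47 (SE 0.08). Both lost the call without the 12-month replicate 1 (adjusted p = 0.76 for each by edgeR), without the 12-month replicate 2 (0.548 for Clcf1 and 0.37 for Il33) and without the 24-month library (0.626 for each), and each was called in 9 of 18 alternatives. In those fits without a library the log2 differences were 0.58, 0.56 and 0.59 for Clcf1 and 0.43, 0.45 and 0.48 for Il33, near those of the main fit. With classes and values from separate parts of the UMIs Il33 was not called (adjusted p = 0.375 by edgeR), and thinned to 1000 UMIs neither was. Jchain was at 9.0, 15.4, 68.4, 5.02 and 49.3 CPM in the low class, 12.9, 16.4, 165, 6.76 and 102 in the middle class and 12.6, 18.6, 83.7, 9.23 and 58.3 in the high class. Of its 2083 UMIs in the middle class of the 12-month replicate 1, 1043 (50.1%) lay in 1 cell, and of its 1052 UMIs in that of the 24-month library, 467 (44.4%) lay in 1 cell. No cell of the bottom or high class held more than 8. Without cells carrying at least 1% markers of other types the log2 difference of Jchain from the mean of both was 0.08 (adjusted p = 0.885 by edgeR).

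Along 8 equal bins of each library's urothelial cells, of which bins 3 to 6 make up the middle class, several genes had their highest mean level in an inner bin, given here without a test. Krt4, a keratin of layered epithelia, was at 341, 370.4, 359, 365, 319.6, 256, 192 and 149 CPM over the bins. Against the low class the middle class of Krt4 differed by 0.17 in male and -0.26 in mixed libraries (adjusted p of the interaction 4.50e-06 by edgeR), so the direction was not the same in both kinds of pool. Areg, an EGF receptor ligand, was at 262, 312, 375, 343, 318, 274, 245 and 224 CPM, and Ovol1, a factor of epithelial differentiation, at 50.5, 57.9, 74.1, 67.8, 56.4, 64.1, 56.5 and 50.5 CPM. CPM over bins are means of 5 libraries without the TMM factors. None of these genes passed the test against the mean of the low and high classes: the adjusted p was 0.345 for Krt4, 0.842 for Areg and 0.419 for Ovol1 by edgeR. Foxa1, a pioneer transcription factor of the urothelium, was higher in the middle class than in the low and high classes in 5 of 5 libraries, with log2 differences of 0.14 and 0.25, and it too did not pass that test (adjusted p from edgeR 0.345).

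**Figure D3:**
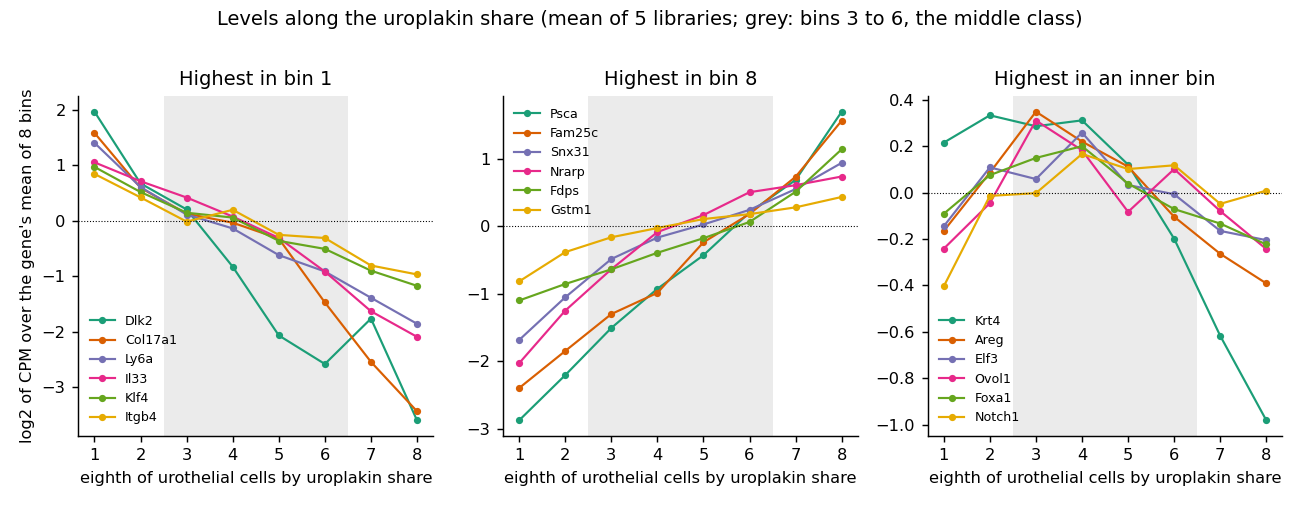
Mean level over 5 libraries in 8 bins of urothelial cells ranked by uroplakin share (x axis), as the log2 of CPM over the gene's mean of the 8 bins (y axis); grey marks bins 3 to 6, the middle class. Dlk2 and Psca change across the whole range, and Krt4, Areg, Elf3, Ovol1, Foxa1 and Notch1, in a panel with a narrower y axis of its own, are highest in bins 2 to 4.

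Male and mixed libraries differed in how far the middle class stood from the low and high classes. The interaction of class and kind of pool was called for 539 of 11173 genes (4.82%) by edgeR. It was called for 255 genes without the 3-month males, 263 without the 12-month replicate 1 and 305 without the 24-month library. With cells thinned to 1000 UMIs it was called for 64 genes, with classes and values from separate parts of the UMIs for 239, by DESeq2 for 341, and without the library block for 0. The 2 kinds cannot be told apart from other features of the tables: the male tables list 27775 genes, use barcodes of 14 bases and hold 0 mitochondrial UMIs, and the mixed tables list 27998 genes with barcodes of 16 bases and are deeper. Among the 33 named genes 12 were called. The mean log2 difference of Dlk2 from the low class was -2.02 in male and -3.11 in mixed libraries, in the same direction. Gsdmc2 stood above the high class by 0.97 in male and 1.82 in mixed libraries, and Ptgs1 by 0.59 and 1.49.

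Rgs5, a regulator of G-protein signals best known from pericytes, changed direction. Against the low class its mean log2 difference was -0.71 in the 2 male libraries and 1.59 in the 3 mixed ones. Rgs5 was at 9.6, 8.05, 9.71, 12.6 and 6.83 CPM in the low class, 6.61, 4.02, 27.8, 34.9 and 26.1 in the middle class and 12, 16.4, 117, 131 and 87.1 in the high class. The mixed libraries were thus high and the male ones low in the middle and high classes. The falls in the male libraries rest on low levels. Of the 6 pericyte markers, Rgs5 and Notch3 were tested, and both were called higher than in the low class and in the interaction. Notch3 rose by 1.81 in male and 0.57 in mixed libraries on average. The other markers Cspg4, Kcnj8, Abcc9 and Higd1b had too few UMIs to test. Cyp2f2 also changed direction against the low class (0.29 in male and -0.71 in mixed libraries). Of the 28 dissociation genes 2 were called in this interaction and of the 14 hemidesmosome genes 1, against 4.82% of all genes tested.

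**Figure D4:**
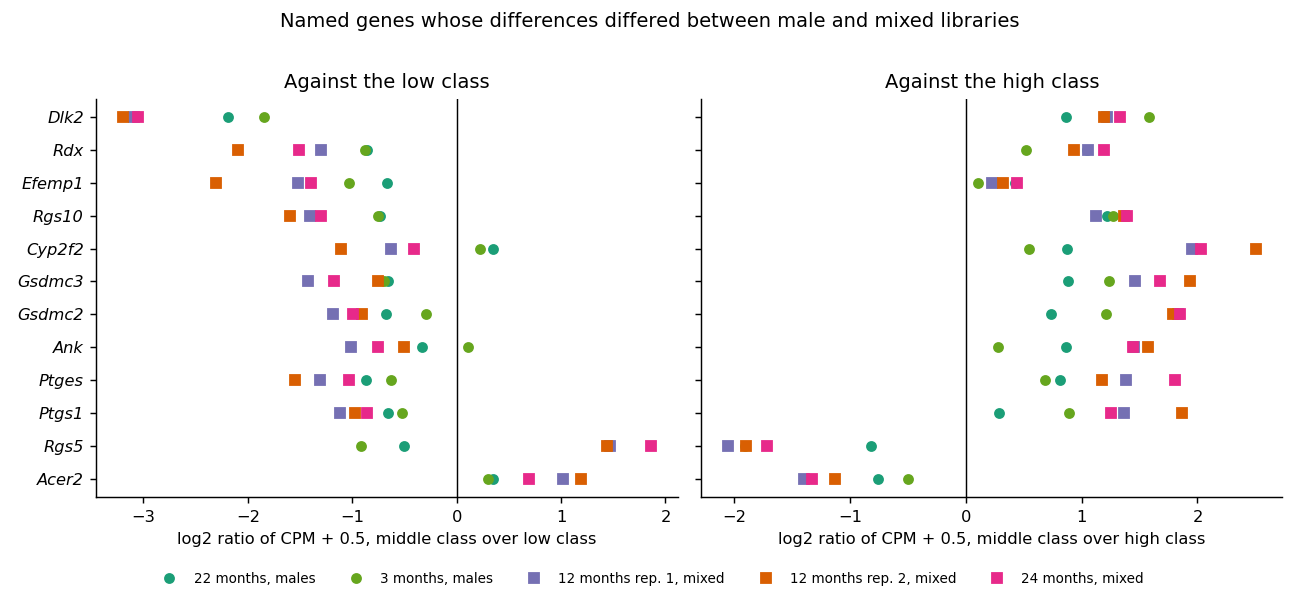
Log2 ratio of CPM + 0.5 of the middle class over the low class (left) and over the high class (right) for the 12 named genes called between male and mixed libraries (y axis); each point is 1 library, circles male pools and squares mixed pools. Rgs5 and Cyp2f2 lie on opposite sides of 0 for the 2 kinds of pool on the left, and the other genes on the same side except Ank in the 3-month males.

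The middle class of older libraries (22 and 24 months) was compared with that of younger ones (3, 12 and 12 months), with the kind of pool as a term. By edgeR 0 of 11886 genes were called (0%), 472 had an unadjusted p under 0.05, and DESeq2 called 13, all higher in older libraries. Without the filter on low counts edgeR called 107 higher and 11 lower. Each age but 12 months is a single pool. Leaving out the 12-month replicate 1 or the 24-month library raised the number called by edgeR from 0 to 50 higher and 7 lower in the first case and 56 higher and 25 lower in the second, and leaving out the 12-month replicate 2, the 22-month males or the 3-month males gave 8, 3 and 1, all higher. No gene is named from this comparison.

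The same ranking was applied to a library of nuclei (2 males and 2 females aged 12 months) and to a library of detrusor-enriched cells (2 males and 2 females aged 14 months), neither of which chose the members. Each is 1 library, so no test was made. The middle class comprised 296 nuclei and 509 detrusor-enriched cells, of which 39.2% and 60.7% carried at least 1% of markers of other cell types. In the low and high classes these shares were 45.3% and 55.4% in nuclei and 68% and 43.4% in the detrusor-enriched library. Median UMIs in the low class, middle class and high class were 1128, 1433 and 1029.5 in nuclei and 654.5, 732 and 2129.5 in the detrusor-enriched library. In the detrusor-enriched library Psca was at 32.6, 121 and 848 CPM in the low class, middle class and high class, and Dlk2 at 57.3, 12.9 and 1.93 CPM. Col17a1 was at 109, 36 and 4.14 CPM there and Il33 at 69, 45.1 and 6.07 CPM, so these 4 genes had the same order of classes as in the whole-bladder libraries. In nuclei Psca was at 179, 339 and 1073 CPM and Il33 at 44.8, 26.8 and 14.5 CPM. Of the genes named against the low class that both tables hold, all 9 higher and all 10 lower had the same direction in the detrusor-enriched library, and 7 of 9 and 8 of 10 in nuclei. Of those named against the high class, 10 of 10 in each direction did so in the detrusor-enriched library, and 10 of 10 higher and 7 of 10 lower in nuclei. Sprr2b and Sprr2a1 had 0 UMIs in all 3 classes of nuclei and count here as not sharing the direction. Some shared directions rest on few UMIs: Sprr2a1 had 0, 6 and 32 in the detrusor-enriched classes and Defb1 0, 4 and 3 in those of nuclei. Genes named in both comparisons count in both. The share of all tested genes that kept direction in these 2 libraries was not counted, so these numbers have no background share beside them.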

How the data were processed

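Whole-bladder single cells of 5 libraries were analysed from the deposited tables of UMI counts per gene and barcode, which the authors made with Cell Ranger on mm10 per the submitters' processing notes; versions are not given in the sources used here. The gene and cell filters behind the deposited tables are not stated. No deposited cell annotation was used. The members, the gene lists and the tests were chosen with earlier results of these data known. Male tables hold 0 mitochondrial UMIs, so 13 mitochondrial genes and the 13 rule genes were left out, leaving 27451 genes common to the tables.

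Counts were summed per library and class (15 sums) and tested with edgeR 4.0.16 in R 4.3.3 (TMM, filterByExpr, robust quasi-likelihood, library as a block), with Benjamini-Hochberg adjustment over all genes tested. The standard error is the absolute log2 difference over the square root of the F statistic. DESeq2 1.42.0 was an alternative. The block follows from the classes of a library sharing animals and droplets: the deviations of classes of 1 library correlated at r between 0.725 and 0.879 over 15 pairs. Replicates are pools of mice. With the library as a block, p-values of the class comparisons measure how repeatable a class difference is from pool to pool. Differences in level between pools are taken out by the block. The age comparison had no such block, and its p-values rest on the spread in level between pools.

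The genes named are the 10 largest rises and 10 largest falls among genes past an adjusted p of 0.05, with a mean of at least 20 CPM, the same direction in all 5 libraries and the same call without cells carrying markers of other cell types; predicted and ribosomal protein genes were passed over. For the comparison in which a gene was named, the shared direction and the call without such cells were thus fixed by the choice. Members of the gene lists were also named. No doublet filter was applied in the main analysis; as an alternative, barcodes with the highest doublet scores were left out at 0.8% per 1000 barcodes, which marked between 0.508 and 10.3% of the middle class. Counts were also simulated for 11173 genes from the fitted dispersion trend, with 50 genes changed at each fold. The changed genes were drawn from those with a mean of at least 20 CPM. Of these, a 1.25-fold change was recovered for 60% against the low class and 72% against the high class, and a 1.5-fold change for 98 and 100%. Recovery at lower levels, or for genes that vary more than the trend, was not simulated. For the interaction of class and kind of pool, a 1.25-fold change in the male middle class was recovered for 4%. A 1.5-fold change was recovered there for 42%.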

Additional observations from a re-analysis of the deposited data

Results flagged for a closer look

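In 40 differences of named genes 1 library was compared with the other 4 by the size of its gap to them, a comparison that chance meets in about 1 of 20 groups. In 3 of them a single library stood apart. The middle class of the 24-month library was below its high class in Cldn8 by a log2 difference of -1.53, and the other libraries lay between -1.15 and -1.01. Rgs5 in the 22-month males differed from the high class by -0.81, against -2.05 to -1.72 elsewhere. Sprr2a2 in the 12-month replicate 2 differed by -1.10, against -2.03 to -1.84 elsewhere.

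Of 33 named genes, 12 had class differences that were not the same in male and mixed libraries by the interaction test of edgeR, which called 4.82% of all genes. The adjusted p was 0.00123 for Dlk2, 0.0481 for Rdx, 0.00768 for Efemp1, 0.0174 for Rgs10, 0.0384 for Cyp2f2, 0.00428 for Gsdmc3 and 7.61e-09 for Gsdmc2. It was 0.000764 for Ank, 0.00201 for Ptges, 0.000105 for Ptgs1, 3.36e-05 for Rgs5 and 0.0043 for Acer2. Rdx and Efemp1 fell from the low class to the middle class in all 5 libraries, which was a condition for naming them. Their mean log2 differences were -0.87 and -0.85 in male and -1.63 and -1.74 in mixed libraries. Acer2 differed from the high class by -0.63 in male and -1.28 in mixed libraries. Sex, depth, the number of genes listed, barcode length and the presence of mitochondrial UMIs differ between the 2 kinds of pool together and cannot be told apart.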

How the results depend on the processing

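The numbers of called genes by edgeR were compared with those of each alternative. The main numbers were 787 higher and 715 lower against the low class, 1021 and 834 against the high class, 3 and 0 against the mean of the low and high classes, 539 between male and mixed libraries, and 0 and 0 by age. Without the replicate block, which drops the pairing of classes by library, they were 0 and 0 against the low class, 0 and 1 against the high class, 0 higher against the mean and 0 between kinds of pool. With cells thinned to 1000 UMIs they were 118 and 127, 61 and 67, 0 higher, 64, and 2 higher by age. Thinning also leaves out shallower cells, forms the classes anew and leaves fewer counts. The classes formed anew did not keep the shares of the main ranking, and the middle class was a smaller part of the cells. Scaling by library size alone gave 1145 lower against the low class and 2 higher by age. DESeq2 gave 661 higher against the high class, 0 higher against the mean, 341 between kinds of pool and 13 higher by age. Splitting the ranked cells into 3 classes of equal size gave 470 lower against the low class, 0 higher against the mean and 3 higher by age. Forming classes and measuring levels from separate parts of the UMIs gave 6 higher against the mean and 239 between kinds of pool. No filter on low counts gave 73 higher and 12 lower against the mean and 107 higher and 11 lower by age. A gate at 1.5%, chosen after seeing the data because the planned 5% left 0 cells in a class and was not run, gave 0 higher and 1 lower against the mean.

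Leaving out each library in turn gave 456 to 884 higher and 354 to 860 lower against the low class, 391 to 1238 and 374 to 1129 against the high class, 0 to 6 higher and 0 lower against the mean, 255 to 535 between kinds of pool (263 without the 12-month replicate 1, 305 without the 24-month library, 255 without the 3-month males), and 1 to 56 higher and 0 to 25 lower by age. The causes of these changes were not tested.

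The 40 differences of named genes were followed over 717 checks: 660 kept direction and call, 56 kept direction without the call, and 1 reversed, Sema3c against the high class with cells thinned to 1000 UMIs (log2 difference -0.0165, adjusted p = 0.996 by edgeR). One setting, without cells carrying markers of other cell types, was a condition for naming. Its 20 kept calls against each class were fixed by that choice. The required direction in all 5 libraries also favoured the checks that left out a library. The losses lay mostly in 2 settings: without the replicate block all 20 calls against each class were lost, and with thinning 16 of 18 tested differences kept the call against the low class and 9 of 19 against the high class. Male libraries have fewer UMIs per cell, which limits what their middle class can show. The classes are cuts of a continuous share, and cells near a limit may belong to either side.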
